A study of Homo sapiens with 9 samples.

Results

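The histone genes were examined in WiDr cells, a human colon adenocarcinoma cell line with mutant p53, after LIMp27 knockdown. They were taken as the protein-coding genes whose names begin with HIST1H to HIST4H (clustered, replication-dependent genes, 58) or with H2AF, H3F3 or H1F (variant genes, 11), 69 of 25159 genes listed. Cells were transfected with 100 nM of a siRNA, either control siRNA or 1 of the LIMp27 siRNAs, LIMp27 siRNA-1 (siRNA-1) and LIMp27 siRNA-2 (siRNA-2), RNA was taken after 24 h, and 3 libraries were sequenced for each siRNA. All groups are the same cell line in the same culture medium, and no untransfected cells were analysed. The 3 libraries of a group are described by the study as biological repeats, and the labels do not name the cultures they came from.

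Histones package DNA, and a dividing cell makes most of them during S phase from genes that lie in clusters and are read mainly while DNA is copied. The mRNAs of these clustered genes usually lack introns and a poly(A) tail and end just after a short stem-loop in the 3′ UTR, which is bound by SLBP. Variant histone genes lie outside the clusters, mostly give spliced or single-exon mRNAs with poly(A) tails, and are mostly used throughout the cell cycle. Some clustered genes can also give longer, polyadenylated transcripts in cells that have stopped dividing. The library selection step (poly(A) RNA or removal of ribosomal RNA) is not given in the sources used here, so levels of the clustered genes refer to whichever of their transcripts these libraries captured.

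Between 14361629 and 21524623 reads per library were counted to genes. LIMp27 itself, listed as LINC01356, had 0, 0 and 2 reads with control siRNA, 0, 0 and 0 with siRNA-1 and 0, 2 and 1 with siRNA-2, so its knockdown was not detectable at this depth. The paper reports that qPCR showed the knockdown of LIMp27 in the WiDr cells used for RNA-seq. Of the 10 colon epithelial markers looked up, 9 were listed, at 0.682 to 9199 counts scaled by TMM to a common library size (CPM) in single libraries, whereas 3 of 6 fibroblast and leukocyte markers were listed, at 0 to 1.40 CPM.

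The letters of the histone stem-loop were sought on the sense strand of the spliced transcripts and were found in 28 clustered genes and in 1 variant gene, H2AFX, against 5 of 19615 other protein-coding genes (0.0255%). The annotated transcripts of many clustered genes run far past it, whereas those of 25 of the 58 stop at the stop codon and could not hold it. The windows below come from GENCODE 29 transcripts on GRCh38, with the stem-loop in capitals, for 4 genes that were higher with siRNA-2, for 1 that was lower with both siRNAs (HIST1H4B) and for the variant gene that carries it.
HIST2H2BE: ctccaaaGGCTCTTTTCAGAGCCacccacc
HIST1H2BD: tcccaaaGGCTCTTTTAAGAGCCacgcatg
HIST3H2A: acataaaGGCTCTTTTCAGAGCCacctact
HIST1H4H: aaccaaaGGCCCTTTTCAGGGCCgcccact
HIST1H4B: ttccaatGGCCCTTTTCAGGGCCgcccact
H2AFX: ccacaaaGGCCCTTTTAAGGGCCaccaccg
They lie at chr1:149886181-149886210 (minus strand), chr6:26158580-26158609 (plus), chr1:228457362-228457391 (minus), chr6:26285124-26285153 (minus), chr6:26026894-26026923 (minus) and chr11:119094891-119094920 (minus), all in 3′ UTRs. The H2A gene HIST3H2A and the H2B gene HIST2H2BE held the same stem-loop letters, as did the H4 genes HIST1H4H and HIST1H4B. The GG, CTTTT, AG and GCC common to all windows shown were required by the search and are no result. After the stem-loop the annotated transcript ran on for 1729 bases in HIST2H2BE, 39 in HIST1H2BD, 390 in HIST3H2A, 630 in HIST1H4H, 86 in HIST1H4B and 1044 in H2AFX.

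The promoters of H2A and H2B genes shared the octamer ATTTGCAT, which is bound by POU2F1. Within the RefSeq promoter windows (GRCh38.p14, 250 bases before to 50 after the start, both strands searched), it was found in 12 of 16 H2B genes and 8 of 13 H2A genes. None of the 5 H1, 8 H3 and 11 H4 genes with a window held it. It was found in 1 of 9 variant genes with a window, H3F3B, and in 2.20% of all 27305 genes. A TATAAA was present in 34 of 53 clustered genes and 14.0% of all genes, and a CCAAT in 44 of 53 and 39.7%. The octamer windows below, with the octamer or its reverse complement in capitals, are shown because HIST2H2BE and HIST2H2AC are read in opposite directions from 1 shared window, as are HIST1H2BM and HIST1H2AJ, and because HIST1H2BK had the most reads of the clustered genes.
HIST2H2BE: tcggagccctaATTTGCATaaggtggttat
HIST2H2AC: ataaccaccttATGCAAATtagggctccga
HIST1H2AJ: taaatgttattATGCAAATtaggagtagaa
HIST1H2BK: ctcttcaccttATTTGCATgagaggtccta
The HIST2H2BE and HIST2H2AC window is chr1:149886710-149886739, read on the minus and the plus strand, that of HIST1H2AJ is chr6:27814963-27814992 (minus) and that of HIST1H2BK is chr6:27146886-27146915 (minus). A match is a description of these letters and not a measured site.

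Levels per length were compared with the FPKM values deposited by the authors, which scale counts by the average transcript length of each gene and by library size. With control siRNA the variant genes stood far above the clustered genes, with a median FPKM of 136 over 11 variant and 1.32 over 58 clustered genes. H3F3B, which with H3F3A encodes the replacement form of histone H3, was the most abundant at 826 ± 13.6 FPKM (SD, n = 3). H2AFZ, which encodes an H2A variant found at promoters, followed at 377 ± 11.9 FPKM and H2AFY, which encodes a macroH2A, at 250 ± 7.58 FPKM (SD, n = 3). H2AFJ, which encodes an H2A variant, was the lowest of the 9 variant genes that passed the filter on low counts, at 17.7 ± 1.87 FPKM (SD, n = 3). Among clustered genes HIST1H2BK led at 44.4 ± 2.49 FPKM, followed by the linker histone gene HIST1H1C at 26.0 ± 3.70 FPKM, HIST1H2BD at 11.2 ± 1.97 FPKM and HIST1H2AC at 10.9 ± 2.08 FPKM (SD, n = 3), and the last of these did not differ beyond their spread.

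Of the clustered genes, 41 were tested with siRNA-1 and 35 with siRNA-2 after genes with few reads were removed, and 17 were tested in neither, with 3 to 73 reads each over the 9 libraries. Of the variant genes, 9 were tested, and H3F3C and H2AFY2 were not, with 39 and 14 reads. A member that passed the filter only through the group in which it was higher had to differ, so the counts over tested members are descriptions. Fold changes and p-values come from edgeR's quasi-likelihood test, with p-values adjusted after Benjamini and Hochberg across every gene tested and called below 0.05.

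With siRNA-1, 8 of 9 tested variant genes were higher and 0 lower, whereas 7 of 41 tested clustered genes were higher and 1 lower. Of all 14347 genes tested, 54.8% were called, 26.5% higher and 28.3% lower. The median log2 fold change was 0.26 for the tested variant genes, −0.04 for the tested clustered genes and 0.00094 for all tested genes. With siRNA-2, 4 of 9 variant genes were higher and 3 lower, and 13 of 35 clustered genes were higher and 9 lower. Of all 14204 genes tested, 56.7% were called, 27.7% higher and 29% lower. The median log2 fold change was 0.0045 for the variant genes, 0.18 for the clustered genes and 0.01 for all tested genes. The clustered median with siRNA-2 was −0.15 without control siRNA replicate 2, −0.13 without siRNA-2 replicate 1 and −0.15 without siRNA-2 replicate 2, so it gave no direction for the class. Both comparisons share the control libraries. The tested variant genes averaged 43.4 to 935 CPM over the 9 libraries, whereas no clustered gene averaged above 26.5 CPM. Small changes were therefore called more readily in variant genes, and the call counts of the classes are not directly comparable. With siRNA-1, H2AFZ was called at a log2 fold change of 0.13 ± 0.04 (SE), whereas HIST1H4I was not at 0.70 ± 0.43 (SE).

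**Figure D1:**
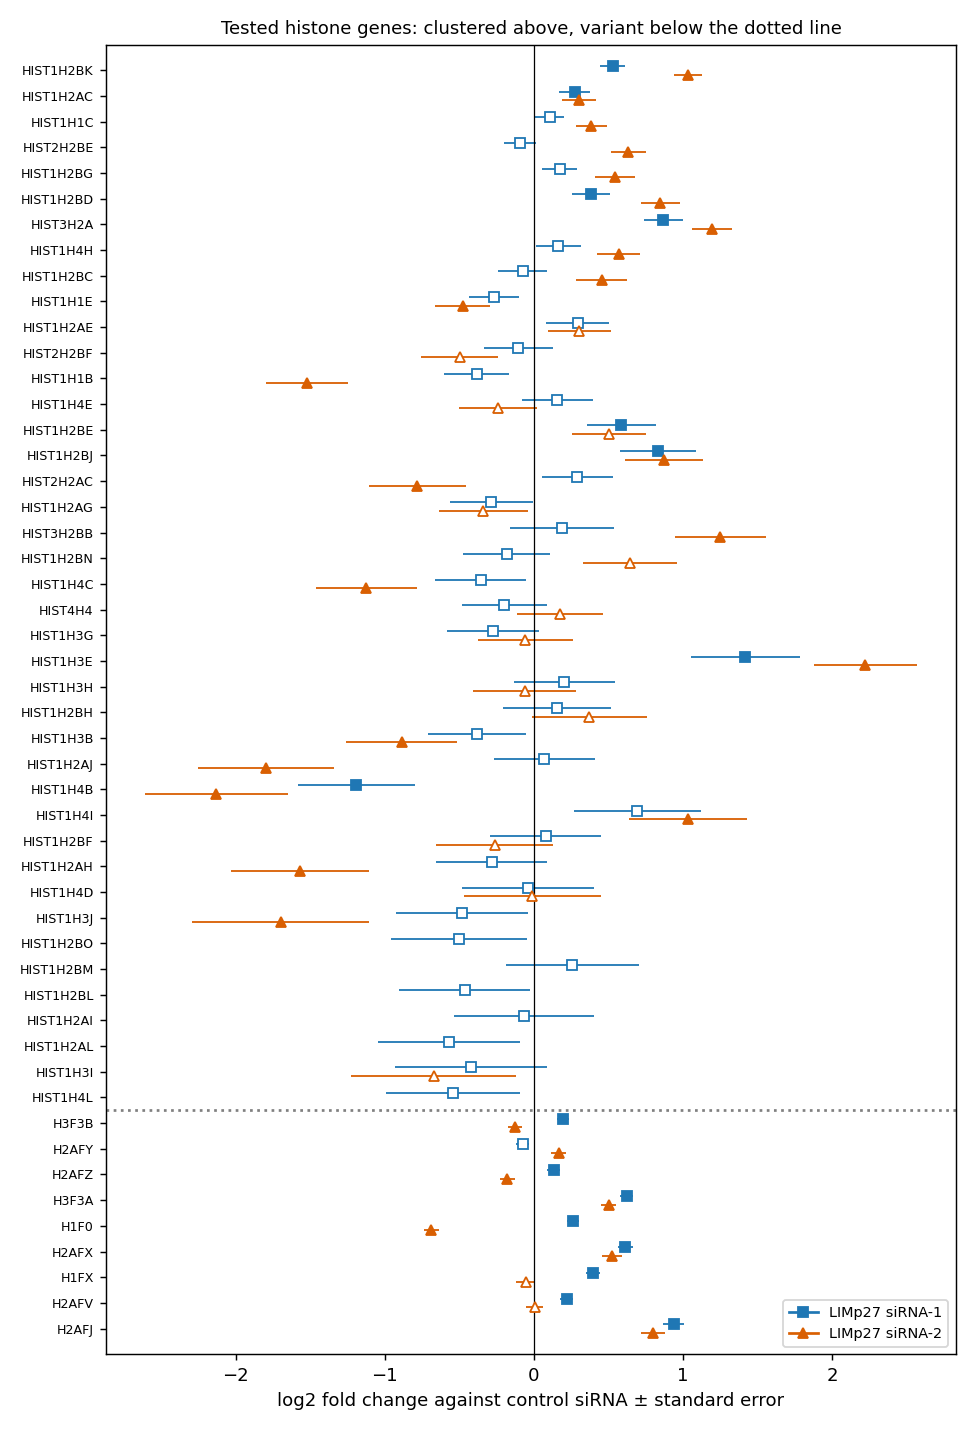
Log2 fold change against control siRNA (x axis, ± standard error) of every tested histone gene, ordered by reads within each class, for siRNA-1 (squares) and siRNA-2 (triangles). Filled symbols passed an adjusted p of 0.05 and open symbols did not. Of the 9 variant genes, 8 squares are filled and to the right of 0, and the clustered genes spread to both sides with siRNA-2.

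Summed over all members, tested or not, clustered transcripts were 164, 126 and 171 CPM with control siRNA, 165, 166 and 187 CPM with siRNA-1 and 195, 202 and 213 CPM with siRNA-2. The siRNA-2 libraries lay above all control libraries, while those of siRNA-1 overlapped them. The 16 clustered H2B genes gave 67.0 ± 9.16 CPM with control siRNA, 78.9 ± 4.04 CPM with siRNA-1 and 108 ± 10.2 CPM with siRNA-2 (SD, n = 3). Of these sums HIST1H2BK, whose sequence is largely shared with other genes, gave 17.7, 25.4 and 36.3 CPM. The 14 clustered H2A genes gave 35.3 ± 5.18, 43.6 ± 3.31 and 43.7 ± 2.68 CPM (SD, n = 3), with all H2A knockdown libraries above the controls. Of these, HIST3H2A gave 5.49, 10.0 and 12.5 CPM. Of 7 H2A genes tested with siRNA-2, 2 were higher and 3 lower, with a median log2 fold change of −0.34. The 13 clustered H4 genes gave 16.5 ± 3.24, 16.3 ± 3.40 and 16.3 ± 1.14 CPM and the 10 clustered H3 genes 6.56 ± 1.80, 6.50 ± 1.38 and 6.65 ± 1.21 CPM (SD, n = 3), and the 5 clustered H1 genes 28.2 ± 5.26, 27.3 ± 2.18 and 28.6 ± 2.82 CPM (SD, n = 3). Summed variant transcripts were 3144, 3101 and 3007 CPM with control siRNA, 3738, 3655 and 3606 CPM with siRNA-1 and 3102, 3144 and 2984 CPM with siRNA-2. For the variant genes the siRNA-1 libraries were all higher than the control libraries and those of siRNA-2 overlapped them. A different share of cells in S phase and a different amount of histone mRNA per cell cannot be told apart in these bulk samples.

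**Figure D2:**
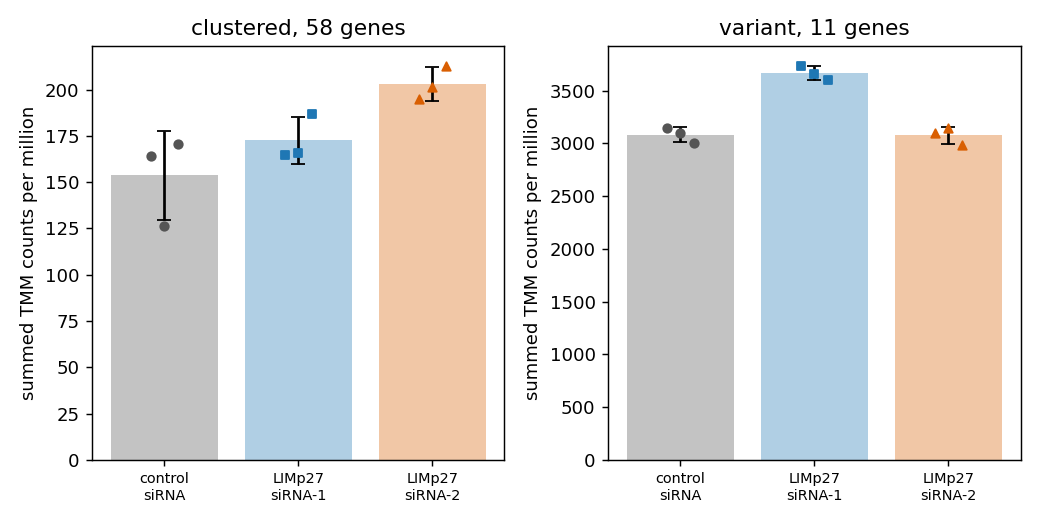
Summed TMM CPM (y axes from 0) of the 58 clustered (left) and 11 variant histone genes (right) for each siRNA. Bars are means of 3 libraries with SD, and points are libraries. The clustered sum is highest with siRNA-2 (195 to 213) and the variant sum with siRNA-1 (3606 to 3738).

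Among the variant genes, H2AFJ, H3F3A and H2AFX were higher with both siRNAs. H2AFJ was at 31.5, 26.3 and 26.3 CPM with control siRNA, 55.6, 51.6 and 53.8 CPM with siRNA-1 and 48.1, 49.9 and 47.7 CPM with siRNA-2. The control libraries did not overlap either knockdown group, and the log2 fold changes were 0.94 ± 0.07 (SE, adjusted p = 2.0e-12, edgeR) and 0.80 ± 0.08 (SE, adjusted p = 7.0e-10, edgeR). H3F3A, located on chromosome 1, was at 276, 266 and 258 CPM with control siRNA, 423, 408 and 397 CPM with siRNA-1 and 389, 378 and 358 CPM with siRNA-2. Again no library overlapped the controls, with log2 fold changes of 0.62 ± 0.04 (SE, adjusted p = 6.6e-13, edgeR) and 0.50 ± 0.05 (SE, adjusted p = 2.2e-09, edgeR). H3F3A shares 11.7% of its 50-base stretches with other genes, mostly the pseudogene H3F3AP4, so some of its reads may be split. H2AFX, whose product is phosphorylated around DNA breaks, was at 203, 203 and 181 CPM with control siRNA, 317, 292 and 286 CPM with siRNA-1 and 266, 315 and 258 CPM with siRNA-2. All knockdown libraries were above the controls, and the log2 fold changes were 0.61 ± 0.05 (SE, adjusted p = 1.5e-11, edgeR) and 0.52 ± 0.06 (SE, adjusted p = 5.7e-08, edgeR).

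H1F0, H2AFZ and H3F3B changed in opposite directions with the 2 siRNAs. H1F0, which encodes a linker histone that accumulates in cells that have stopped dividing, was at 341, 337 and 325 CPM with control siRNA, 386, 405 and 407 CPM with siRNA-1 and 204, 207 and 207 CPM with siRNA-2. The 3 groups did not overlap. Its log2 fold changes were 0.26 ± 0.04 (SE, adjusted p = 5.5e-06, edgeR) and −0.69 ± 0.05 (SE, adjusted p = 1.7e-12, edgeR), and siRNA-2 against siRNA-1 gave −0.94 ± 0.05 (SE, adjusted p = 3.5e-16, edgeR). H2AFZ was at 485, 464 and 455 CPM with control siRNA, 542, 503 and 491 CPM with siRNA-1 and 423, 410 and 401 CPM with siRNA-2. Its groups did not overlap, but the changes were small, with log2 fold changes of 0.13 (adjusted p = 0.012, edgeR) and −0.18 (adjusted p = 0.0032, edgeR). Without siRNA-1 replicate 1 the first was 0.09 (adjusted p = 0.090, edgeR) and no longer passed. H3F3B was at 936, 914 and 907 CPM with control siRNA, 1062, 1054 and 1030 CPM with siRNA-1 and 832, 831 and 845 CPM with siRNA-2. The log2 fold changes were 0.20 (adjusted p = 0.00015, edgeR) and −0.13 (adjusted p = 0.020, edgeR), and the second did not pass without control siRNA replicate 1 (−0.12, adjusted p = 0.085, edgeR) or without siRNA-2 replicate 1 (−0.13, adjusted p = 0.053, edgeR). H3F3A and H3F3B, which encode the same protein, thus both rose with siRNA-1, while with siRNA-2 H3F3A rose and H3F3B was lower.

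The other variant genes changed with 1 siRNA. H1FX, a linker histone gene, was at 210, 220 and 200 CPM with control siRNA and 279, 270 and 279 CPM with siRNA-1 (log2 fold change 0.40, adjusted p = 1.2e-08, edgeR), and its 200, 223 and 181 CPM with siRNA-2 overlapped the controls. H1FX lies across from the antisense gene H1FX-AS1, and the sources used here do not state whether counting used the strand. H2AFV, which encodes a close relative of the H2AFZ product, was at 188, 183 and 190 CPM with control siRNA and 222, 214 and 217 CPM with siRNA-1 (log2 fold change 0.22, adjusted p = 7.2e-05, edgeR), against 193, 193 and 174 CPM with siRNA-2. H2AFY was the 1 variant gene not called with siRNA-1, at 473, 489 and 465 CPM with control siRNA and 450, 457 and 445 CPM with siRNA-1 (log2 fold change −0.07, adjusted p = 0.13, edgeR). With siRNA-2 it was at 545, 537 and 512 CPM, above all controls (log2 fold change 0.17, adjusted p = 0.0048, edgeR).

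**Figure D3:**
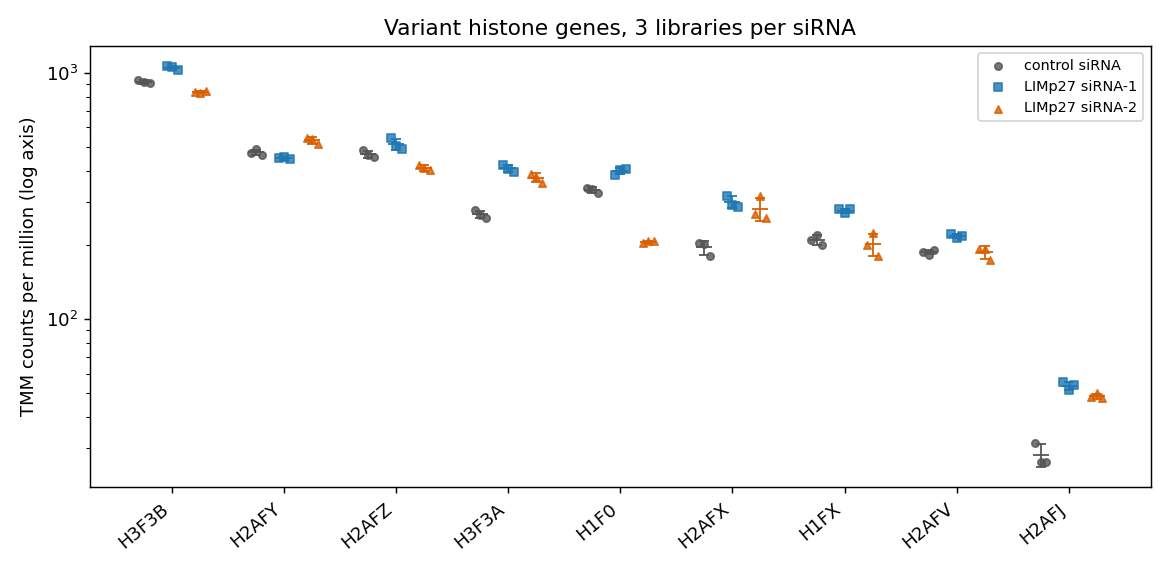
TMM CPM (log axis) of the 9 tested variant histone genes in the 3 libraries of each siRNA, with mean and SD. H1F0 lies lowest with siRNA-2 (204 to 207), while H2AFJ, H3F3A and H2AFX lie above control siRNA with both LIMp27 siRNAs.

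Among the clustered genes, 6 were higher with both siRNAs (HIST1H2BK, HIST3H2A, HIST1H2BD, HIST1H2AC, HIST1H2BJ and HIST1H3E) and 1, HIST1H4B, was lower with both. No clustered gene was called in opposite directions. How many of all tested genes were called alike or in opposite directions with both siRNAs was not counted, and both comparisons share the control libraries. These joint counts are therefore descriptions. HIST1H2BK, an H2B gene, was at 18.4, 16.5 and 18.3 CPM with control siRNA, 23.4, 26.6 and 26.3 CPM with siRNA-1 and 31.6, 36.3 and 41.0 CPM with siRNA-2. Its 3 groups did not overlap, and the log2 fold changes were 0.53 ± 0.08 (SE, adjusted p = 3.1e-06, edgeR) and 1.04 ± 0.09 (SE, adjusted p = 1.3e-10, edgeR). Of its 50-base stretches 74.1% are shared with other genes, mostly H2BFS, so its reads are uncertain. HIST3H2A, an H2A gene on chromosome 1 away from the large chromosome 6 cluster, was at 6.38, 4.86 and 5.24 CPM with control siRNA, 9.93, 10.2 and 9.88 CPM with siRNA-1 and 12.2, 13.2 and 12.2 CPM with siRNA-2. The groups stood apart, with log2 fold changes of 0.87 ± 0.13 (SE, adjusted p = 1.8e-06, edgeR) and 1.19 ± 0.13 (SE, adjusted p = 8.3e-09, edgeR). HIST1H3E, an H3 gene, was low, at 0.622, 0.425 and 0.450 CPM with control siRNA, 1.36, 1.57 and 1.13 CPM with siRNA-1 and 2.65, 1.72 and 2.66 CPM with siRNA-2. It had the highest log2 fold changes of the tested members, 1.42 ± 0.36 (SE, adjusted p = 0.0015, edgeR) and 2.22 ± 0.35 (SE, adjusted p = 3.0e-06, edgeR). With 11, 7 and 8 reads with control siRNA, HIST1H3E passed the filter on low counts only through the LIMp27 siRNA libraries. It therefore had to be higher with each siRNA, and its values are descriptions.

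HIST1H2BD, an H2B gene, was at 7.12, 6.38 and 9.01 CPM with control siRNA, 9.58, 9.39 and 10.3 CPM with siRNA-1 and 14.7, 13 and 12.5 CPM with siRNA-2. Its log2 fold changes were 0.38 (adjusted p = 0.013, edgeR) and 0.85 (adjusted p = 2.2e-06, edgeR). The first did not pass without control siRNA replicate 2 (0.28, adjusted p = 0.091, edgeR), without siRNA-1 replicate 3 (0.34, adjusted p = 0.056, edgeR) or with a correction for gene length (0.24, adjusted p = 0.11, edgeR). HIST1H2AC, the H2A gene with the most reads, was at 18.4, 14.5 and 21.6 CPM with control siRNA, 19.7, 22.4 and 23.5 CPM with siRNA-1 and 21.5, 20.2 and 25.6 CPM with siRNA-2, and the groups overlapped. Its log2 fold changes of 0.27 (adjusted p = 0.025, edgeR) and 0.30 (adjusted p = 0.023, edgeR) were 0.14 (adjusted p = 0.26, edgeR) and 0.16 (adjusted p = 0.24, edgeR) without control siRNA replicate 2. With siRNA-1 it also did not pass without siRNA-1 replicate 2 (0.26) or replicate 3 (0.22), nor with siRNA-2 without control siRNA replicate 1 (0.31) or siRNA-2 replicate 3 (0.20). HIST1H2BJ, an H2B gene, was at 1.09 to 1.86 CPM with control siRNA, 2.25 to 3.08 CPM with siRNA-1 and 2.39 to 2.99 CPM with siRNA-2, with log2 fold changes of 0.83 (adjusted p = 0.0062, edgeR) and 0.87 (adjusted p = 0.0055, edgeR). HIST1H2BE, an H2B gene higher with siRNA-1 only by this threshold, had log2 fold changes of 0.59 (adjusted p = 0.033, edgeR) and 0.50 (adjusted p = 0.084, edgeR). The first did not pass with DESeq2, nor without control siRNA replicate 2 (0.43) or any 1 of the siRNA-1 libraries (0.56 to 0.60).

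With siRNA-2, 7 further clustered genes were higher that were not called with siRNA-1. HIST2H2BE, an H2B gene on chromosome 1, was at 11.3, 11.7 and 14.9 CPM with control siRNA, 11.6, 11.4 and 12.4 CPM with siRNA-1 and 17.5, 18.5 and 22.9 CPM with siRNA-2. The siRNA-2 libraries lay above both other groups, with log2 fold changes of 0.63 ± 0.12 against control siRNA (SE, adjusted p = 3.1e-05, edgeR) and 0.74 ± 0.10 against siRNA-1 (SE, adjusted p = 6.8e-07, edgeR). HIST3H2BB, the H2B gene next to HIST3H2A, was at 0.622, 1.09 and 1.58 CPM with control siRNA and 2.40, 3.24 and 2.18 CPM with siRNA-2 (log2 fold change 1.25, adjusted p = 0.00095, edgeR). The H2B gene HIST1H2BG (0.54, adjusted p = 0.00099, edgeR), the H4 gene HIST1H4H (0.57, adjusted p = 0.0012, edgeR) and the linker histone gene HIST1H1C (0.39, adjusted p = 0.0023, edgeR) rose without overlap with the controls. HIST1H4I, an H4 gene, had a log2 fold change of 1.03 (adjusted p = 0.028, edgeR), which did not pass with DESeq2 or without control siRNA replicate 1 (1.01), control siRNA replicate 2 (0.74) or siRNA-2 replicate 1 (0.83). HIST1H4I passed the filter on low counts there only through the siRNA-2 libraries, so it had to be higher. HIST1H2BC, an H2B gene, overlapped the controls, and its log2 fold change of 0.45 (adjusted p = 0.026, edgeR) was 0.33 without control siRNA replicate 2 and 0.30 without siRNA-2 replicate 3 (adjusted p = 0.13 and 0.18, edgeR). It also did not pass without control siRNA replicate 1 (0.43) or siRNA-2 replicate 1 (0.45), with DESeq2 or with a correction for gene length (0.31).

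**Figure D4:**
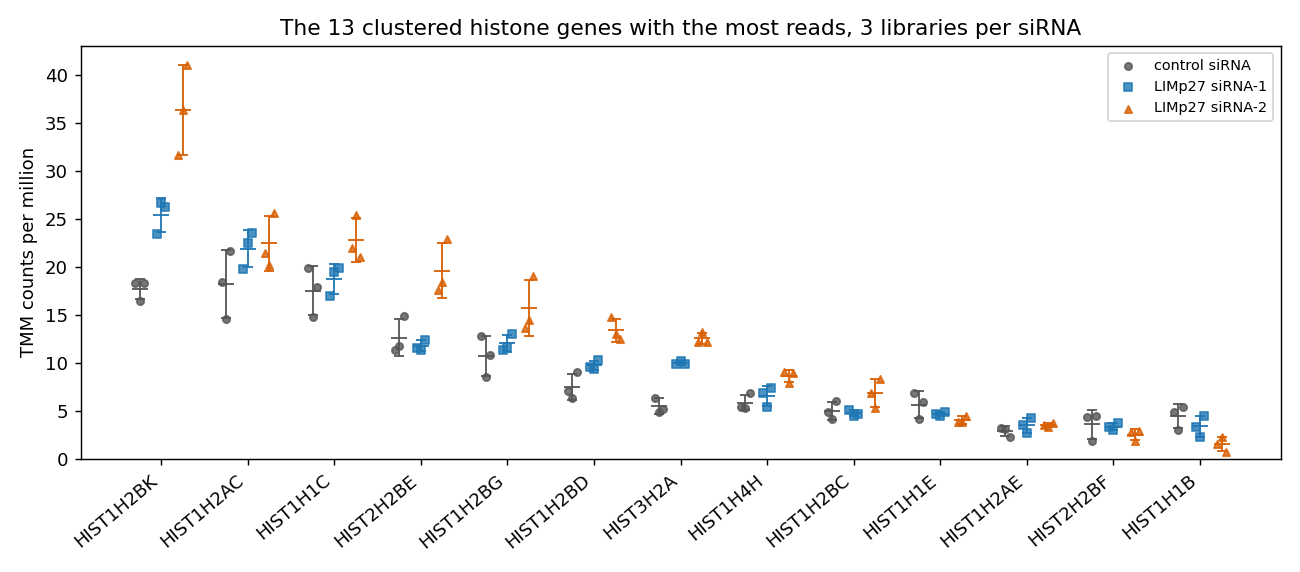
TMM CPM (y axis from 0) of the 13 clustered histone genes with the most reads, in the 3 libraries of each siRNA, with mean and SD. HIST1H2BK, HIST2H2BE, HIST1H2BD and HIST3H2A are highest with siRNA-2, and HIST1H1B is lowest there (0.750 to 2.23).

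The 9 clustered genes that fell with siRNA-2 included no H2B gene, but HIST1H2BO, HIST1H2BM, HIST1H2BL and HIST1H2BI had too few reads to be tested there and had lower mean levels with siRNA-2 than with control siRNA, for example 0.418 against 0.728 CPM for HIST1H2BO, without overlap. HIST1H1B, a linker histone gene, was at 4.92, 3.04 and 5.40 CPM with control siRNA, 3.37, 2.30 and 4.49 CPM with siRNA-1 and 1.60, 2.23 and 0.750 CPM with siRNA-2. Only the siRNA-2 libraries did not overlap the controls, and the log2 fold changes were −0.38 ± 0.22 (SE, adjusted p = 0.14, edgeR) and −1.52 ± 0.27 (SE, adjusted p = 2.4e-05, edgeR). With siRNA-1 HIST1H1B passed without control siRNA replicate 2 (−0.59, adjusted p = 0.023, edgeR) and without siRNA-1 replicate 3 (−0.67, adjusted p = 0.020, edgeR). HIST1H4B, an H4 gene, was at 2.32, 0.790 and 1.91 CPM with control siRNA, 0.650, 0.313 and 1.18 CPM with siRNA-1 and 0.300, 0.764 and 0.0682 CPM with siRNA-2. Its log2 fold changes were −1.19 ± 0.39 (SE, adjusted p = 0.011, edgeR) and −2.13 ± 0.48 (SE, adjusted p = 0.00039, edgeR), and the first did not pass without control siRNA replicate 1 (−0.88, adjusted p = 0.11, edgeR) or without siRNA-1 replicate 2 (−0.84, adjusted p = 0.099, edgeR). The H2A gene HIST1H2AJ was at 1.02, 0.790 and 1.75 CPM with control siRNA and 0.50, 0.191 and 0.273 CPM with siRNA-2 (log2 fold change −1.80, adjusted p = 0.0013, edgeR), but shares 84% of its 50-base stretches with other genes. HIST1H2AH, an H2A gene, fell by 1.57 on the log2 scale (adjusted p = 0.0048, edgeR). With siRNA-2, HIST1H4B, HIST1H2AJ and HIST1H2AH passed the filter on low counts only through the control libraries. They had to be lower there, so these values are descriptions.

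The calls of other genes that were lower with siRNA-2 depended on which libraries were used. HIST1H4C, an H4 gene, was at 1.58, 1.52 and 3.27 CPM with control siRNA and 1.10, 0.891 and 0.887 CPM with siRNA-2, and its log2 fold change of −1.12 (adjusted p = 0.0054, edgeR) was −0.68 (adjusted p = 0.13, edgeR) without control siRNA replicate 3. HIST1H3J, an H3 gene, had a log2 fold change of −1.70 (adjusted p = 0.016, edgeR), and it was −1.33 without control siRNA replicate 1, −1.23 without siRNA-2 replicate 1 and −1.31 without siRNA-2 replicate 3, none of which passed. HIST1H3J overlaps HIST1H2AM on the same strand, so its reads are uncertain. HIST1H3B, an H3 gene, had a log2 fold change of −0.89 (adjusted p = 0.042, edgeR), which did not pass with DESeq2 or without any 1 of the control libraries (−0.97 to −0.75), siRNA-2 replicate 1 (−0.69) or siRNA-2 replicate 3 (−0.85). HIST1H1E, a linker histone gene, had a log2 fold change of −0.48 (adjusted p = 0.028, edgeR), and it did not pass with DESeq2 or without control siRNA replicate 1 (−0.31), control siRNA replicate 3 (−0.45), siRNA-2 replicate 1 (−0.43) or siRNA-2 replicate 2 (−0.46).

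Genes that share a promoter window did not always move together. HIST2H2AC, the H2A partner of HIST2H2BE, was at 1.70, 2.25 and 1.91 CPM with control siRNA, 2.19, 2.09 and 2.81 CPM with siRNA-1 and 0.700, 1.72 and 1.02 CPM with siRNA-2. Its log2 fold change with siRNA-2 was −0.78 (adjusted p = 0.041, edgeR) where that of HIST2H2BE was 0.63, but it did not pass with DESeq2 or without control siRNA replicate 2 (−0.68), control siRNA replicate 3 (−0.80), siRNA-2 replicate 1 (−0.49) or siRNA-2 replicate 3 (−0.73). HIST2H2AC shares 30% of its 50-base stretches with other genes, mostly HIST2H2AA3 and HIST2H2AA4, and its deposited model holds only the coding part, whereas that of HIST2H2BE continues for 1801 bases after the stop codon. In the pair HIST1H2AC and HIST1H2BC both were higher with siRNA-2 (0.30 and 0.45, with the limits given above). In the pair HIST1H2AG and HIST1H2BJ the log2 fold changes were −0.34 (adjusted p = 0.34, edgeR) and 0.87, and in the pair HIST1H2AE and HIST1H2BG 0.31 (adjusted p = 0.22, edgeR) and 0.54. HIST1H2BM, the partner of HIST1H2AJ, was not tested with siRNA-2. Among the clustered genes with the most reads, HIST1H2AE and HIST2H2BF were called with neither siRNA. HIST2H2BF was at 4.35, 1.88 and 4.50 CPM with control siRNA and 2.75, 1.91 and 2.93 CPM with siRNA-2, and without control siRNA replicate 2, the lowest of its controls, its log2 fold change moved from −0.50 (adjusted p = 0.10, edgeR) to −0.80 (adjusted p = 0.0036, edgeR).

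The clustered genes were also split by the length of their annotated 3′ end. This split was made after the fold changes were seen and was given no test. Of 27 clustered genes with over 100 annotated bases after the stop codon, 23 were tested, 11 were higher and 1, HIST1H4B, lower, with a median log2 fold change of 0.45, where 27.7% of all tested genes were higher and 29% lower with siRNA-2. Of 31 with 100 bases or fewer, 12 were tested, 2 were higher (HIST1H2BK and HIST1H1C) and 8 lower, with a median of −0.83. Some of the lower genes passed the filter on low counts only through the control libraries. HIST1H2AH, for example, had 19, 10 and 18 reads with control siRNA and 6, 4 and 5 with siRNA-2. Among the higher genes, HIST1H3E and HIST1H4I passed it only through the siRNA-2 libraries, with 11, 7 and 8 and with 10, 5 and 15 reads with control siRNA. Such members on both sides had to differ, so these counts and medians are descriptions. With the limit at 200 bases, 11 of 21 tested genes were higher and 0 lower on the long side, and 2 of 14 were higher and 9 lower on the short side. With siRNA-1, 6 of 23 genes with the longer 3′ end (26.1%) were higher and 1 lower (median 0.16), and 1 of 18 with the shorter 3′ end was higher and 0 lower (median −0.32). Of all genes tested with siRNA-1, 26.5% were higher and 28.3% lower, so the share of longer 3′ end genes called higher was near that of all genes. The summed level of the genes with the longer 3′ end was 91.3 ± 14.5 CPM with control siRNA, 105 ± 7.23 CPM with siRNA-1 and 130 ± 7.89 CPM with siRNA-2, and that of the others 62.4 ± 9.70, 67.4 ± 5.36 and 73.4 ± 4.91 CPM (SD, n = 3). The second sum includes HIST1H2BK and HIST1H1C, which rose. Whether the transcripts measured carried a poly(A) tail was not tested.

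**Figure D5:**
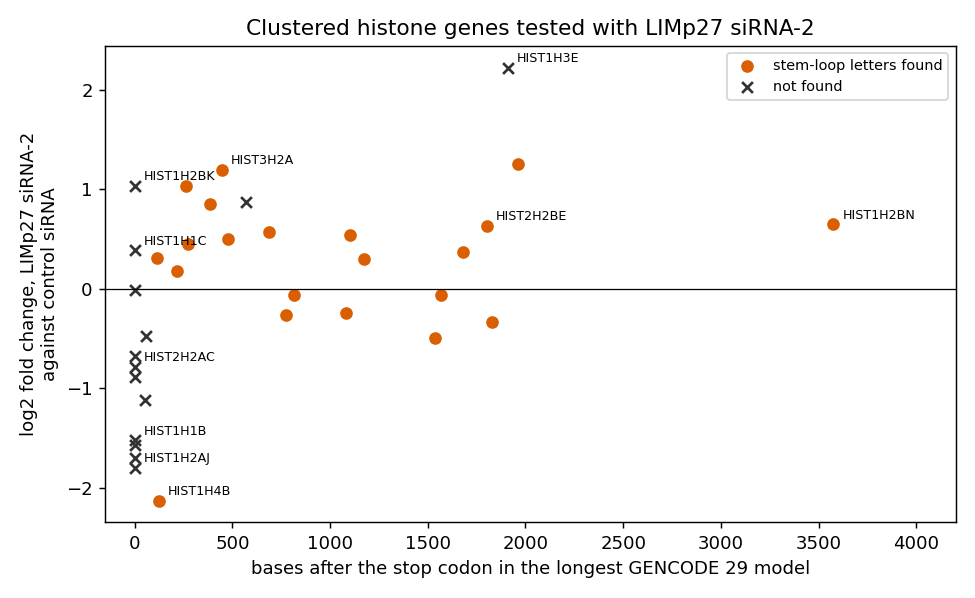
Log2 fold change with siRNA-2 against control siRNA (y axis) of the 35 tested clustered histone genes by the bases annotated after the stop codon (x axis). Circles are genes in whose transcript the stem-loop letters were found and crosses those without. Points near 0 bases lie mostly below 0, with HIST1H2BK and HIST1H1C above.

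The 2 LIMp27 siRNAs were compared directly, which leaves out the shared controls. Of 14415 genes tested 45.4% were called, 23.1% higher and 22.4% lower with siRNA-2 than with siRNA-1. Of 9 variant genes 5 were lower (H1F0, H1FX, H3F3B, H2AFZ and H2AFV) and 1, H2AFY, higher with siRNA-2, and of 34 tested clustered genes 11 were higher and 3 lower (HIST1H1B, HIST2H2AC and HIST1H2AJ). H2AFJ, H3F3A and H2AFX, higher with both siRNAs, differed between them by −0.13 (adjusted p = 0.10, edgeR), −0.11 (adjusted p = 0.067, edgeR) and −0.08 (adjusted p = 0.30, edgeR) on the log2 scale. H3F3A was lower with siRNA-2 with 1 fit over 9 libraries (−0.13, adjusted p = 0.030, edgeR) and with a replicate block (−0.11, adjusted p = 0.049, edgeR), and H2AFX without siRNA-2 replicate 2 (−0.17, adjusted p = 0.012, edgeR). For HIST1H2BK (0.52 ± 0.09, SE) and HIST3H2A (0.34 ± 0.11, SE) the rise was larger with siRNA-2. HIST1H4B (−0.93 ± 0.54, SE, adjusted p = 0.17, edgeR) and HIST1H4C (−0.76 ± 0.32, SE, adjusted p = 0.056, edgeR) did not pass this comparison, although each passed without 1 library, HIST1H4B without siRNA-2 replicate 2 (−1.82) and HIST1H4C without siRNA-1 replicate 2 (−1.0).

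Genes that act on histone mRNA changed in both directions. Of 26 genes for histone mRNA processing and transcription, 25 were tested, with 4 higher and 10 lower with siRNA-1 and 3 higher and 10 lower with siRNA-2. Over all tested genes the shares were 26.5% higher and 28.3% lower with siRNA-1 and 27.7% higher and 29% lower with siRNA-2. SLBP, which binds the stem-loop, was at 140 ± 5.74 CPM with control siRNA, 95.3 ± 3.74 CPM with siRNA-1 and 128 ± 7.60 CPM with siRNA-2 (SD, n = 3), with log2 fold changes of −0.55 (adjusted p = 9.4e-11, edgeR) and −0.12 (adjusted p = 0.075, edgeR). NPAT, a coactivator of clustered histone genes, had log2 fold changes of −0.16 (adjusted p = 0.040, edgeR) and −0.06 (adjusted p = 0.50, edgeR). LSM11, a subunit of the U7 particle that cuts histone pre-mRNA, was at 22.7 ± 1.84, 25 ± 2.01 and 10.4 ± 1.20 CPM (SD, n = 3) with control siRNA, siRNA-1 and siRNA-2, with log2 fold changes of 0.14 (adjusted p = 0.16, edgeR) and −1.11 (adjusted p = 5.3e-10, edgeR). ERI1, an exonuclease that trims the histone mRNA end, fell with both, by 0.50 and 1.14 on the log2 scale (adjusted p = 3.0e-08 and 2.7e-13, edgeR), as did CSTF2, a cleavage factor, by 1.02 and 0.69 (adjusted p = 9.3e-16 and 1.2e-10, edgeR). The part of these genes in the histone levels was not tested.

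Of 29 histone chaperone and deposition genes, 9 were higher and 8 lower with siRNA-1, and 6 higher and 10 lower with siRNA-2, against the same shares over all tested genes (26.5% and 28.3%, then 27.7% and 29%), to which the counts with siRNA-1 were close. RBBP4, a subunit of the chromatin assembly factor that loads new histones, was at 209 ± 8.32, 235 ± 2.35 and 83.9 ± 7.36 CPM (SD, n = 3) with control siRNA, siRNA-1 and siRNA-2, with log2 fold changes of 0.18 (adjusted p = 0.0011, edgeR) and −1.31 (adjusted p = 6.7e-17, edgeR). HJURP, the chaperone of the centromeric histone, fell with both by 0.34 and 0.73 on the log2 scale (adjusted p = 5.05e-07 and 1.02e-11, edgeR), whereas CENPA, that histone itself, rose by 0.44 and 0.56 (adjusted p = 3.0e-06 and 4.4e-07, edgeR). CABIN1, a subunit of the complex that deposits the H3F3A and H3F3B product, rose by 0.63 and 0.41 (adjusted p = 1.4e-10 and 5.7e-06, edgeR).

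Of 26 genes for S phase entry and DNA synthesis, 4 were higher and 17 lower with siRNA-1, and 1 was higher and 20 lower with siRNA-2, where 28.3% and 29% of all tested genes were lower. TYMS, which makes thymidylate, was at 169 ± 2.96, 123 ± 2.64 and 75.7 ± 4.22 CPM (SD, n = 3) with control siRNA, siRNA-1 and siRNA-2, with log2 fold changes of −0.45 (adjusted p = 9.9e-10, edgeR) and −1.15 (adjusted p = 3.7e-16, edgeR). CCNA2, which encodes cyclin A2, fell by 0.33 and 1.04 on the log2 scale (adjusted p = 2.4e-06 and 1.3e-14, edgeR). With siRNA-2 these falls stood beside the falls of HIST1H1B and HIST1H4B and the rises of HIST1H2BK and HIST3H2A, while with siRNA-1 HIST1H1B was not called, and their relation was not tested.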

How the data were processed

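Strand-specific libraries of WiDr cells were analysed. The authors deposited 1 table per LIMp27 siRNA with raw read counts per gene, not normalized, and FPKM, which are counts scaled by transcript length and library size, with identical control values in each table. The submitters' notes name CASAVA and GRCh38, and the aligner, counter and library selection are not given in the sources used here. The deposited normalized values, log2 fold changes and p-values of the authors' own comparison were not used. The gene_length column, deposited by the authors, entered no fit. The correction for gene length used lengths calculated back from the deposited counts and FPKM. Of the 69 histone genes, 68 were in both tables and HIST1H3C was in 1. The 11 histone-named rows of other biotypes were left out of the members.

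Groups were taken from the labels. Comparisons used 6 libraries each with edgeR 4.0.16 (TMM, filterByExpr with a minimum count of 10, quasi-likelihood test without robust estimation, two-sided) in R 4.3.3, with Benjamini-Hochberg adjustment over all tested genes and a threshold of 0.05. Standard errors were obtained as the fold change on the log2 scale over the root of F. CPM are TMM-scaled over 9 libraries. The members, lists and naming rule were chosen with earlier results of these data known. The rule names all tested variant genes, the 12 clustered genes with the most reads, up to 6 rises and 6 falls per comparison, up to 6 that differ between siRNAs, and SLBP, NPAT and up to 4 called genes per list. HIST2H2AC, HIST1H2BE, HIST1H3B, HIST1H4I, HIST1H2AG, HIST1H2BM and HIST1H2BN fall outside it and were named after their values were seen. Sequence shared between genes was counted in 50-base windows of GENCODE 29 transcripts, in which all 25159 gene IDs were found.

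On simulated counts, a log2 fold change of 1 was called in 90.7%, 92.7% and 92.9% of changed genes for siRNA-1, siRNA-2 and their difference, run on 14126, 14003 and 14235 genes, and a log2 fold change of 0.5 in 69.7%, 74.7% and 62.6%. The changed genes were drawn at random from all tested genes, so these rates need not hold for clustered genes with few reads. Alternatives were RLE size factors, DESeq2 1.42.0, no filter, a replicate block, 1 fit over 9 libraries, a gene length offset and leaving out each library.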

Additional observations from a re-analysis of the deposited data

Results flagged for a closer look

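The histone genes below differed between the 2 LIMp27 siRNAs in a direct comparison by edgeR's quasi-likelihood test. Lower with siRNA-2 than with siRNA-1, on the log2 scale, were HIST1H2AJ (−1.86), HIST1H1B (−1.13), HIST2H2AC (−1.07), H1F0 (−0.94), H1FX (−0.44), H3F3B (−0.31), H2AFZ (−0.30) and H2AFV (−0.21). Higher were H2AFY (0.25), HIST1H1C (0.29), HIST3H2A (0.34), HIST1H2BG (0.38), HIST1H4H (0.41), HIST1H2BD (0.48), HIST1H2BK (0.52), HIST1H2BC (0.54), HIST2H2BE (0.74), HIST1H3E (0.82), HIST1H2BN (0.84) and HIST3H2BB (1.07). The H1F0 difference had the lowest adjusted p of these (3.5e-16, edgeR), and the HIST1H2BN difference the highest (0.029, edgeR). HIST1H2BN overlaps HIST1H2AL on the same strand and HIST1H2AK on the other, so its reads are uncertain. Some of these differences did not pass without 1 library, namely HIST1H2BN without siRNA-1 replicate 1 (0.75), siRNA-1 replicate 2 (0.82) or siRNA-2 replicate 3 (0.39), HIST1H1C without siRNA-1 replicate 1 (0.22) or siRNA-2 replicate 2 (0.21), HIST1H2BC and HIST1H2BG without siRNA-2 replicate 3 (0.38 and 0.22), HIST1H3E without siRNA-1 replicate 3 (0.69) or siRNA-2 replicate 1 (0.71), and HIST1H4H without siRNA-1 replicate 2 (0.30) or siRNA-2 replicate 1 (0.37).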

How the results depend on the processing

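Of 288 values that describe the classes under other settings, 265 stayed within the limits used, and 23 moved. With a gene length offset, 2 clustered genes were lower with siRNA-1 and the variant median was 0.31. With no filter on low counts the variant median with siRNA-1 was 0.39, the clustered medians were −0.14 with siRNA-2 and −0.22 between the siRNAs, and 5 clustered genes were lower between the siRNAs, as with 1 fit over 9 libraries (5). Leaving out 1 library gave 4 to 8 clustered genes higher and 0 to 4 lower with siRNA-1, a variant median of 0.24 to 0.29 there, a clustered median of −0.15 to 0.15 with siRNA-2, and 3 to 6 clustered genes lower and a clustered median of −0.11 to 0.19 between the siRNAs.

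Of 1296 values for the 37 named histone genes under other settings, 1192 kept direction and side of the threshold, 62 no longer passed, 14 newly passed and 28 changed sign, none of these in a call. With the gene length offset, HIST1H1C was −0.029 and HIST1H2AJ −0.13 with siRNA-1. H2AFV with siRNA-2 was −0.029 with that offset, −0.020 with no filter and −0.0037 with 1 fit over 9 libraries. Leaving out 1 library gave −0.0024 to 0.21 for HIST1H1C, −0.22 to 0.46 for HIST1H2AJ, −0.19 to 0.078 for HIST1H2BC, −0.60 to 0.095 for HIST1H4C, −0.16 to 0.038 for HIST2H2BE, −0.40 to 0.088 for HIST2H2BF, −0.089 to 0.76 for HIST1H2BM and −0.093 to 0.55 for HIST3H2BB with siRNA-1, −0.14 to 0.011 for H1FX and −0.025 to 0.048 for H2AFV with siRNA-2, and −0.071 to 0.10 for HIST1H2AC, −0.14 to 0.21 for HIST1H2AE and −0.051 to 0.18 for HIST1H2BJ and −0.091 to 0.013 for HIST1H2AG between the siRNAs. The cause was not tested.

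Libraries with the same replicate number had correlations of −0.081 to 0.03 in their deviations from the group means, within the −0.095 to 0.132 of different numbers. The numbers thus gave no sign of pairing, but these values cannot show that no cultures were shared. With a replicate block 13 clustered genes were higher and 8 lower with siRNA-2, and H3F3A was lower between the siRNAs (−0.11, adjusted p = 0.049, edgeR), while HIST1H3B did not pass with siRNA-2 (−0.88, adjusted p = 0.059, edgeR). Clustered genes with under 1 CPM rest on few reads, which limits what could be called.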

Other observations

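Among the 11 histone-named rows of other biotypes, 5 had enough reads to be tested. The pseudogenes HIST2H2BC and HIST2H2BD, relatives of the H2B genes on chromosome 1, were higher with siRNA-2, with log2 fold changes of 0.69 (adjusted p = 0.00025, edgeR) and 0.59 (adjusted p = 0.0083, edgeR), and were not called with siRNA-1 (0.22 and −0.06, adjusted p = 0.24 and 0.82, edgeR). HIST2H2BE, the protein-coding H2B gene of that cluster with the most reads, had 0.63 and −0.09. H3F3AP4 and H3F3AP6, processed pseudogenes of H3F3A, were higher with both siRNAs, with log2 fold changes of 0.57 and 0.33 for H3F3AP4 and 1.14 and 0.85 for H3F3AP6 (adjusted p = 1.1e-10, 0.00018, 0.00066 and 0.015, edgeR). Their values may hold reads of H3F3A. H1FX-AS1 had a log2 fold change of 0.39 with siRNA-1 (adjusted p = 1.2e-05, edgeR) and −0.05 with siRNA-2 (adjusted p = 0.63, edgeR), beside 0.40 and −0.05 for H1FX on the opposite strand.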
